A study of Mus musculus with 4 samples.

Results

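Ribosome biogenesis and RNA polymerase I genes were compared between PW1-silenced and control mesoangioblasts. The 60 genes were listed by name: 7 for RNA polymerase I and its initiation factors, 12 for small nucleolar ribonucleoproteins (snoRNPs) and the nucleolar scaffold, 19 for small subunit assembly and 22 for large subunit assembly. Of these, 57 were measured by a probe set carrying exactly 1 gene symbol, among 19938 genes measured in this way. Where a gene had several such probe sets, the one with the highest mean level over the 4 arrays stood for it. Npm3, Noc2l and Ppan had none. Ppan shared its probe set with B130055M24Rik, at 8.71 and 8.70 in shCtrl and 8.99 and 8.99 in shPW1, and that probe set was not counted.

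The cells were mesoangioblasts (MABs), a myogenic cell type found around the small vessels of muscle. They came from tibialis anterior muscle of adult male C57/BL6 mice, were kept as a polyclonal population and were harvested while proliferating in DMEM with 20% fetal bovine serum. Both groups carried a lentiviral vector, one expressing a short hairpin RNA against PW1 (shPW1) and the other a scramble hairpin matching no mouse sequence (shCtrl), so no untransduced cells entered the comparison. Each group held 2 total RNA samples, each on 1 Affymetrix array. The methods describe 2 RNA extractions per cell line, and no label points to separate transductions. P-values and standard errors therefore reflect how repeat extractions and arrays differed, possibly for technical reasons only. They were not shown to include variation among transductions. Effects of the single PW1 hairpin on other transcripts cannot be told apart from those of PW1 loss. The methods name different plasmid backbones for the PW1 hairpin and for a control hairpin, and the labels do not say which backbone the shCtrl arrays had, so backbone and silencing cannot be told apart either.

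A ribosome is built in the nucleolus. RNA polymerase I transcribes the long ribosomal RNA precursor, snoRNPs guide its methylation and pseudouridylation, and separate sets of assembly factors fold, cut and export the precursors of the small and the large subunit. In muscle, as in other tissues, this production is known to track growth and cell division, and Myc is a well known activator of many of its genes.

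The target fell. Peg3, which encodes PW1, stood at 8.67 and 8.70 in shCtrl and at 6.22 and 6.47 in shPW1 on the log2 scale, a log2 fold change of -2.34 (SE 0.10, adjusted p = 0.00428, limma). Array medians over the tested probe sets lay between 6.004 and 6.09, and the replicate arrays differed with an SD over probe sets of 0.150 in shCtrl and 0.166 in shPW1. Of 11 measured mesoangioblast and pericyte markers 5 were lower in shPW1, led by Anpep (-1.06), Cspg4 (-0.66) and Pdgfrb (-0.45), and 1 was higher, Cd44 (0.35). Over all genes tested, 4.35% were called lower and 4.93% higher. Acta2 was bright at 13.1 to 13.3, and Rgs5, a pericyte marker, was dim at 3.70 to 3.79. Leukocyte markers averaged 4.70 to 4.87 and endothelial markers 4.76 to 4.88 per array, below the median of 6.05 over the probe sets, which was taken as the dim threshold. Of the leukocyte markers, Cd14 lay above that threshold on every array, at 6.36 to 6.58. Epithelial markers averaged 5.48 to 5.74, but Krt8 (6.33 to 6.70) and Krt14 lay above the threshold. Krt14 fell from 8.11 and 7.96 in shCtrl to 7.05 and 7.08 in shPW1 (-0.96, limma), the 1 call among 6 genes. Myoblast markers, led by Myod1, were called lower in shPW1 for 6 of 8 genes, beside the same 4.35% of all genes. Their mean level was 7.97 and 8.03 in shCtrl against 7.42 and 7.37 in shPW1. In bulk RNA, fewer cells of a type and less RNA per cell cannot be told apart.

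Of the 57 measured genes, 24 rose in shPW1 and 0 fell at an adjusted p under 0.05 in limma, and 33 did not pass. That is 42.1% of the genes, beside 4.93% of all genes tested called higher and 4.35% called lower. Without adjustment, at p under 0.05, 41 were higher and 0 lower, beside 13.9% of all genes in each direction. The rises were small. The median log2 fold change was 0.27, beside -0.01 over all genes tested, and 29 genes reached a fold of 1.2 while 4 reached 1.4, namely Utp15, Polr1b, Rrp9 and Utp20. As all 57 genes lay above the dim threshold, the share among the 9874 genes that did so is also given, and 8.97% of those were called higher and 6.86% lower.

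The direction was shared by nearly the whole list. The log2 fold change was above 0 for 53 genes and below 0 for 4, which were Npm1, Nop10, Rrp1 and Nop2. Both shPW1 arrays lay above both shCtrl arrays for 51 genes, beside 27% of all genes, and below both for 3, beside 28.5%. With 2 arrays a group, a call at an adjusted p under 0.05 all but requires such separation. For the called genes described below it is therefore no further support. The 2 arrays of a group lay close together: the median difference between replicates was 0.0464 in shCtrl and 0.0329 in shPW1, and the largest was 0.246, for Taf1d. Set against the shCtrl mean of each gene, the median deviation over the genes was 0.02 and -0.02 in the shCtrl arrays and 0.25 and 0.28 in the shPW1 arrays.

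**Figure D1:**
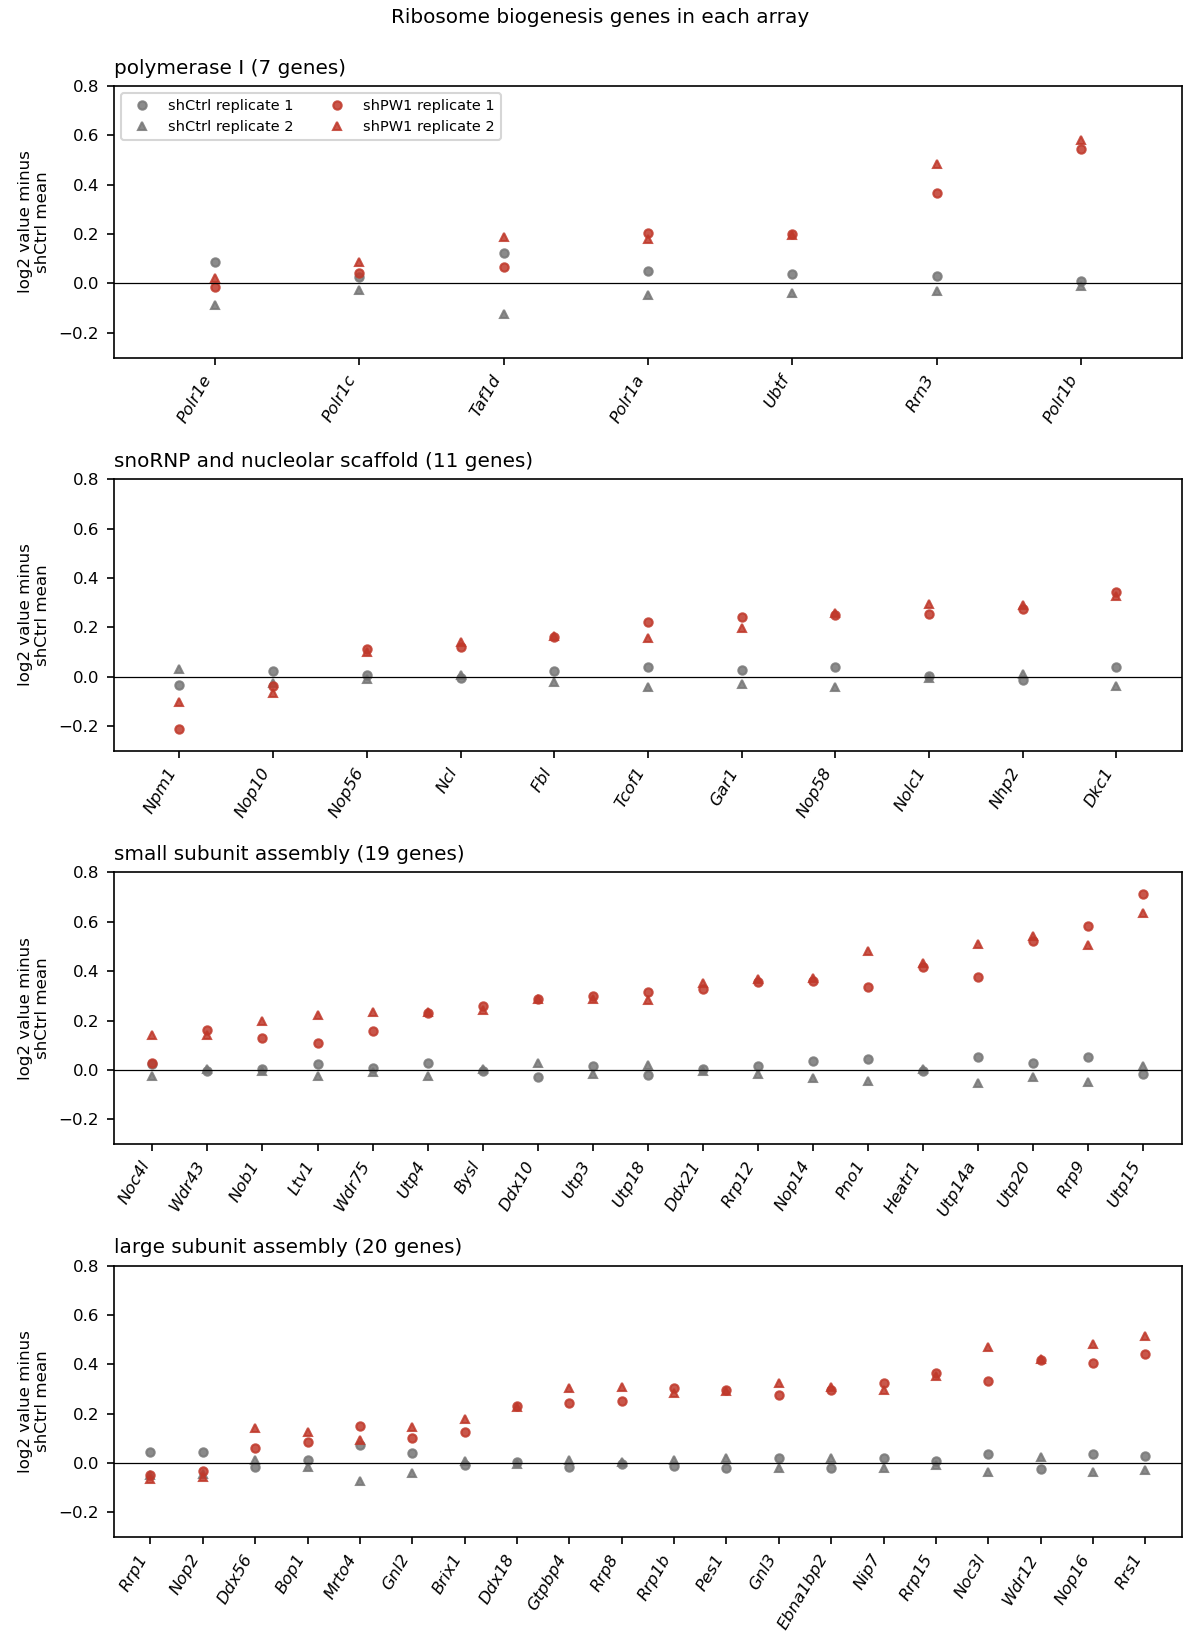
Log2 level of each measured ribosome biogenesis and polymerase I gene on each of the 4 arrays, minus the mean of the 2 shCtrl arrays of that gene, with genes ordered within their group. Each point is 1 array. The shPW1 arrays lie above both shCtrl arrays for 51 of 57 genes and the largest difference is that of Utp15.

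RNA polymerase I was represented by 7 genes, of which 2 rose, beside 4.93% of all genes and 8.97% of those above the dim threshold. The median log2 fold change of the group was 0.19. Polr1b encodes the second largest subunit of the enzyme. It measured 9.43 and 9.42 in shCtrl and 9.97 and 10.01 in shPW1, a log2 fold change of 0.56 (SE 0.06, n = 2 arrays a group, adjusted p = 0.0147). The groups lay far apart relative to their spread, and the fold was 1.48. Rrn3, also known as TIF-IA, links the polymerase to its promoter factors. Its level was 9.90 and 9.84 in shCtrl and 10.24 and 10.35 in shPW1, with a log2 fold change of 0.42 (SE 0.07, adjusted p = 0.0351). Again both silenced arrays were above both controls.

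The other 5 polymerase I genes did not pass. Ubtf, the nucleolar factor that binds ribosomal DNA, measured 9.62 and 9.55 in shCtrl and 9.79 and 9.78 in shPW1, with a log2 fold change of 0.20 (SE 0.06, adjusted p = 0.123). Polr1a, the largest subunit and thus the partner of Polr1b in the catalytic core, measured 8.96 and 8.86 against 9.12 and 9.09, with a log2 fold change of 0.19 (SE 0.06, adjusted p = 0.147). For both genes the arrays of the groups did not overlap. Polr1c, a subunit shared with polymerase III, had a log2 fold change of 0.06, and Polr1e, which encodes the PAF53 subunit, measured 9.05 and 8.87 in shCtrl and 8.95 and 8.98 in shPW1. The 2 shPW1 values of Polr1e lay between those of shCtrl. Taf1d belongs to the selectivity factor that places the polymerase on its promoter, and its brightest probe set gave 10.26 and 10.01 against 10.20 and 10.32. Here the groups overlapped, and the adjusted p was 0.512. Taf1d had 9 probe sets with only 6 distinct sets of values, all with a log2 fold change above 0, between 0.13 and 0.34. Of these, 4 were called higher, but they held identical values (7.92 and 7.90 against 8.28 and 8.22) and count as 1 measurement.

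The promoters of the pair that rose are printed as the 250 bases before the annotated start in RefSeq (build GRCm38.p6), read 5′ to 3′ on the strand of the gene. Capitals mark CACGTG, the E-box that Myc and Max bind. Rrn3 held it at -215 and at -48 relative to the start, and the window of Polr1b did not hold these letters.
Rrn3, chr16:13780449-13780698, plus strand: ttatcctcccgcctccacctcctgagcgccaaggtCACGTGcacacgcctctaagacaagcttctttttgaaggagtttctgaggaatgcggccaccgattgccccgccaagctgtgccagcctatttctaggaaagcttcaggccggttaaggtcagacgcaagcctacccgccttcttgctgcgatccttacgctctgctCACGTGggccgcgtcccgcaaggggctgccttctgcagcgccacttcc
Polr1b, chr2:129100746-129100995, plus strand: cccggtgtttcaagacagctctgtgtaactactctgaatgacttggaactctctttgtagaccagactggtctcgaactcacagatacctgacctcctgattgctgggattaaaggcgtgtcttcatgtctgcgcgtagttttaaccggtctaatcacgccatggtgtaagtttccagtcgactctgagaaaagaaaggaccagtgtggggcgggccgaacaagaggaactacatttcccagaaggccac

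In the snoRNP and nucleolar scaffold group 1 of 11 genes was called, near the 8.97% of all genes above the dim threshold, and the median log2 fold change was 0.19. The count depended on the setting, with 7 of 11 called when dim probe sets were left out (22.9% of all genes then tested) and 9 of 11 with a trended robust prior (12.3%). Dkc1, the pseudouridine synthase of H/ACA snoRNPs, measured 10.27 and 10.19 in shCtrl and 10.58 and 10.56 in shPW1. Its log2 fold change was 0.33 (SE 0.06, adjusted p = 0.0429), with no overlap between the groups. Its partners in the same particle did not all sit together. Nhp2 measured 10.63 and 10.65 against 10.91 and 10.93, a log2 fold change of 0.28 that just missed the threshold (adjusted p = 0.0525). Gar1 did not pass either, at 0.22 (adjusted p = 0.0982). Nop10, the smallest protein of the particle, measured 10.78 and 10.73 in shCtrl and 10.71 and 10.69 in shPW1, with a log2 fold change of -0.05 (adjusted p = 0.632).

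Nolc1, a nucleolar phosphoprotein that accompanies snoRNPs, stood just outside the threshold with 10.00 and 10.00 against 10.25 and 10.29 (log2 fold change 0.27, adjusted p = 0.056). The box C/D proteins, which carry out ribose methylation, gave log2 fold changes of 0.25 for Nop58, 0.16 for the methyltransferase Fbl and 0.11 for Nop56, none of which passed. Ncl (nucleolin) had a log2 fold change of 0.13 and Tcof1 (treacle), a partner of polymerase I, of 0.19, and neither passed. Npm1 (nucleophosmin), the main protein of the granular nucleolus, had the lowest value of all 57 genes. It measured 11.59 and 11.65 in shCtrl and 11.41 and 11.52 in shPW1, with a log2 fold change of -0.16 (SE 0.07, adjusted p = 0.23). Both shPW1 arrays were below both shCtrl arrays, and 3 further probe sets that Npm1 shares with Gm15484 gave log2 fold changes between -0.14 and -0.12.

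Small subunit assembly had the largest share of calls. Of 19 genes 11 rose (57.9%), beside 4.93% of all genes and 8.97% of those above the dim threshold. The median log2 fold change was 0.30, and all 19 had both shPW1 arrays above both shCtrl arrays, beside 27% of all genes. Utp15, part of the early complex that joins the precursor as it is transcribed, had the largest rise of the whole list. It measured 9.10 and 9.13 in shCtrl and 9.83 and 9.75 in shPW1, a log2 fold change of 0.67 (SE 0.06, adjusted p = 0.0123) and a fold of 1.60. The gap between the groups was many times the gap within them. Rrp9, the protein that marks the snoRNP guiding early cleavage of the small subunit precursor, measured 9.20 and 9.10 in shCtrl and 9.73 and 9.66 in shPW1 (log2 fold change 0.54, SE 0.07, adjusted p = 0.0226). Utp20, a large scaffold of the processome, measured 9.24 and 9.19 against 9.74 and 9.76 (log2 fold change 0.53, SE 0.06, adjusted p = 0.018). In both, neither group overlapped the other.

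The other 8 rises in this group ran from 0.29 to 0.44 on the log2 scale. Heatr1, which sits in the same early complex as Utp15, measured 9.70 and 9.71 in shCtrl and 10.12 and 10.13 in shPW1 (log2 fold change 0.43, adjusted p = 0.0236). Utp14a, an activator of a processome helicase, measured 8.49 and 8.39 against 8.81 and 8.95 (0.44, adjusted p = 0.0391). Pno1, the partner of the nuclease Nob1, measured 9.73 and 9.64 against 10.02 and 10.17 (0.41, adjusted p = 0.0486). Pno1 had the widest spread among the called genes, with an SD of 0.104 in shPW1, and its groups were still apart. Nop14, a processome scaffold, measured 9.95 and 9.88 against 10.27 and 10.29 (0.37, adjusted p = 0.0348). Rrp12, needed for export of the small subunit precursor, measured 8.73 and 8.70 against 9.07 and 9.08 (0.36, adjusted p = 0.0329). Ddx21 is an RNA helicase found with polymerase I and snoRNAs. Its level was 10.96 and 10.95 in shCtrl and 11.28 and 11.31 in shPW1 (0.34, adjusted p = 0.0352). Utp18, of the second early complex, measured 8.84 and 8.88 against 9.18 and 9.15 (0.30, adjusted p = 0.0483), and Utp3, another protein of the processome, was at 7.73 and 7.70 against 8.01 and 8.0002 (0.29, adjusted p = 0.0486). All 8 were separated between the groups, as a call all but requires, beside 27% of all genes.

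The 8 small subunit genes that did not pass had log2 fold changes from 0.09 to 0.29. Ddx10, a helicase, was nearest to the threshold with 8.95 and 9.01 in shCtrl and 9.27 and 9.27 in shPW1 (0.29, adjusted p = 0.0541). The early complex of Utp15 and Heatr1 also holds Utp4 (0.23), Wdr75 (0.20) and Wdr43 (0.15), which did not pass. So 2 of its 5 listed genes were called, beside 4.93% of all genes and 8.97% of those above the dim threshold. The 5 genes are too few for a share to be read. Among late factors that ride the precursor to the cytoplasm, Bysl had a log2 fold change of 0.25, Ltv1 of 0.17 and Nob1 of 0.16, and none of the 3 passed. Noc4l, the binding partner of Nop14, had the lowest value at 0.09 (adjusted p = 0.493).

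For this group the upstream 250 bases are printed for Utp15, which rose most, and for Utp18, whose E-box began at -20. For Pno1 and Utp20, both called higher, the E-box began at 37 bases after the start and a 25-base stretch around it is given. The window of Utp15 held no CACGTG.
Utp15, chr13:98262993-98263242, minus strand: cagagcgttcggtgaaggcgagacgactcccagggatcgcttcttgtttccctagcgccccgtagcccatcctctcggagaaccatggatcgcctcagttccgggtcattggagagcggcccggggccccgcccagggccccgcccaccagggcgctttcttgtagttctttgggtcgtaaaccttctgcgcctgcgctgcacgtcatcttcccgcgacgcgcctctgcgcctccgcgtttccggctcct
Utp18, chr11:93885767-93886016, minus strand: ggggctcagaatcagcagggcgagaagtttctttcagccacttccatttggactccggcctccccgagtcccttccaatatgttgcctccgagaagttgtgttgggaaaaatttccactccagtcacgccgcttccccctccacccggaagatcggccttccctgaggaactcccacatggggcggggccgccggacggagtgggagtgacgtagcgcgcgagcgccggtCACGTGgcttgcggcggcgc
Pno1, chr11:17211540-17211564, minus strand: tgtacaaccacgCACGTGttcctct
Utp20, chr10:88826765-88826789, minus strand: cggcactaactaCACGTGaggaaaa

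In large subunit assembly 10 of 20 measured genes rose (50%), beside 4.93% of all genes and 8.97% of those above the dim threshold. The median log2 fold change was 0.29. Rrs1, which helps bring the ribonucleoprotein of the smallest ribosomal RNA into the precursor, led the group with 9.61 and 9.55 in shCtrl and 10.02 and 10.10 in shPW1 (0.48, SE 0.06, adjusted p = 0.0237). Nop16, a nucleolar protein of early large subunit particles, measured 10.21 and 10.13 against 10.58 and 10.65 (0.44, SE 0.07, adjusted p = 0.029). Wdr12 measured 9.83 and 9.88 against 10.27 and 10.28 (0.42, SE 0.06, adjusted p = 0.0259). Each of these was separated between the groups, as a call all but requires. The other probe set of Wdr12 was called higher as well, with a log2 fold change of 0.52.

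Wdr12 forms the PeBoW complex with Pes1 and Bop1, and the complex is needed for processing of the large subunit RNA. Pes1 rose, from 10.12 and 10.16 in shCtrl to 10.44 and 10.43 in shPW1 (0.29, adjusted p = 0.0493). Bop1 measured 10.34 and 10.31 against 10.41 and 10.45, a log2 fold change of 0.11 that did not pass (adjusted p = 0.323). So 2 of the 3 subunits were called, beside 4.93% of all genes and 8.97% of those above the dim threshold. The arrays of the groups did not overlap for any of the 3, beside 27% of all genes with shPW1 above. The 3 genes are too few for a share to be read. The E-box of Pes1 began at 2 bases after the start and is given in a 30-base stretch, in capitals as before.
Pes1, chr11:3963965-3963994, plus strand: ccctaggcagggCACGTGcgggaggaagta

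The remaining 6 genes that rose had log2 fold changes from 0.29 to 0.40. Noc3l, of the nucleolar complex that moves large subunit precursors along, measured 8.54 and 8.47 in shCtrl and 8.84 and 8.98 in shPW1 (0.40, SE 0.08, adjusted p = 0.0449). Rrp15, a factor of early large subunit particles, measured 9.17 and 9.15 against 9.52 and 9.51 (0.36, adjusted p = 0.0325). Nip7 is a small protein of large subunit particles. It measured 8.08 and 8.04 against 8.39 and 8.36 (0.31, adjusted p = 0.0443). Ebna1bp2, a scaffold protein of the same particles, measured 10.28 and 10.32 against 10.60 and 10.61 (0.30, adjusted p = 0.0455). Gnl3 (nucleostemin), a nucleolar GTPase abundant in stem cells, measured 10.38 and 10.34 against 10.64 and 10.69 and was the called gene nearest to the threshold (0.30, adjusted p = 0.0498). Rrp1b measured 8.97 and 9.00 against 9.29 and 9.27 (0.29, adjusted p = 0.0483). In all of these genes both silenced arrays were above both controls, as a call all but requires, beside 27% of all genes.

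Rrp1, the paralogue of Rrp1b, did not pass, and the difference between the pair was not tested. Rrp1 measured 10.49 and 10.40 in shCtrl and 10.40 and 10.38 in shPW1, for a log2 fold change of -0.06 (95% confidence interval -0.22 to 0.11, adjusted p = 0.641). Nop2, an RNA methyltransferase of the large subunit RNA, measured 10.46 and 10.37 against 10.38 and 10.36, with a log2 fold change of -0.05 (adjusted p = 0.714). Its groups overlapped. Rrp8, which modifies a base of the same RNA, had a log2 fold change of 0.28, and the GTPase Gtpbp4 of 0.27, and both missed the threshold (adjusted p = 0.0565 and 0.0619). The helicases Ddx18 (0.23) and Ddx56 (0.10), the GTPase Gnl2 (0.12), Brix1 (0.15) and Mrto4 (0.12) did not pass either.

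**Figure D2:**
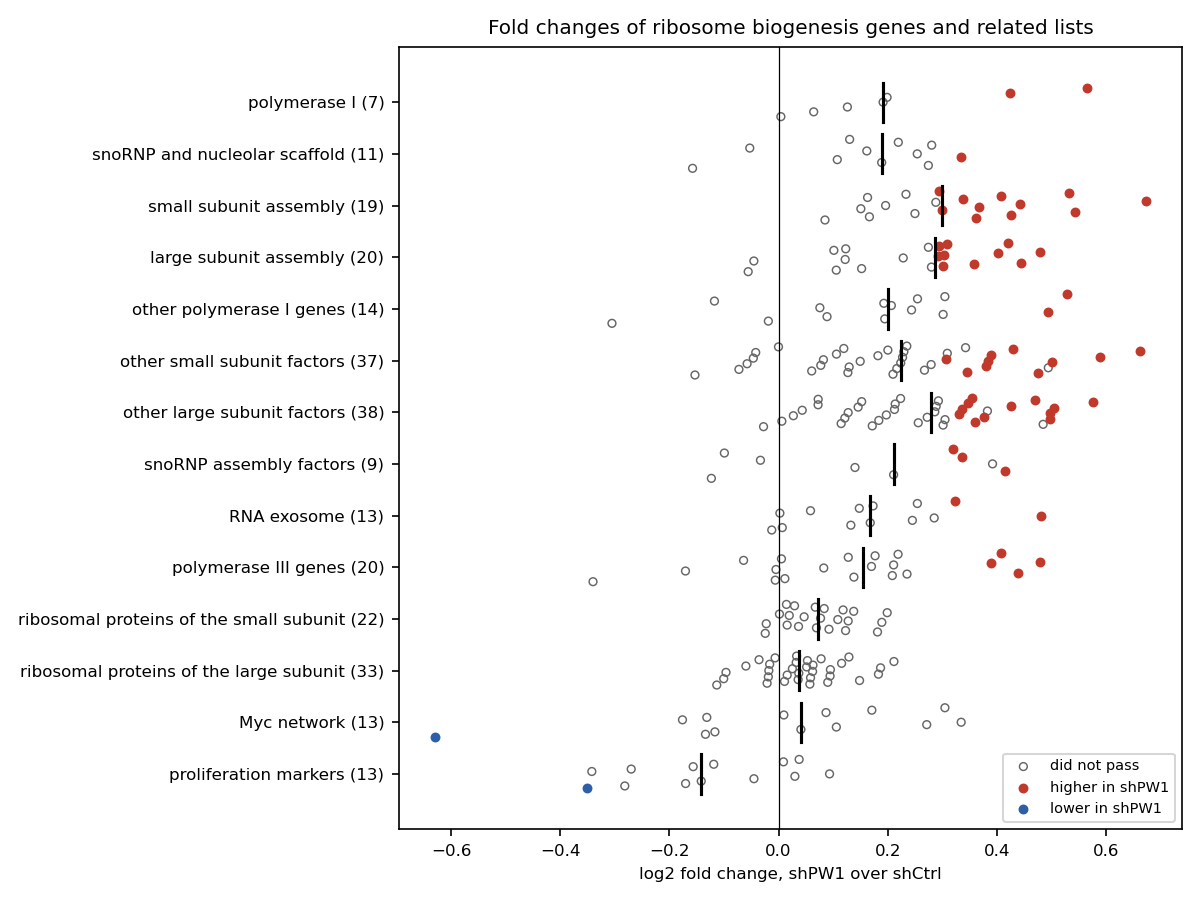
Log2 fold change (shPW1 minus shCtrl) of each gene of the 4 groups and of the other gene lists, with 1 point a gene, the list median as a black bar and filled points for called genes. The median is 0.30 for small subunit assembly, 0.29 for large subunit assembly and 0.19 for polymerase I and for the snoRNP group, and the ribosomal proteins have no filled point.

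Other genes of the same machinery were listed apart. Of 75 measured further small and large subunit factors, 22 rose and 0 fell (29.3%, median log2 fold change 0.23). This stands beside 4.93% of all genes and 8.97% of those above the dim threshold called higher. Unadjusted, 50 were higher and 0 lower at p under 0.05, beside 13.9% of all genes in each direction. They were led by Nol6 (0.66), Nol10 (0.59) and Pwp2 (0.50) of the small subunit processome and by Sdad1 (0.58), Nifk (0.50) and Ddx31 (0.50) of the large subunit. Of 9 snoRNP assembly factors 3 rose, namely Znhit6 (0.41), Nufip1 (0.34) and Znhit3 (0.32), and of 13 genes of the RNA exosome, which trims the precursors, 2 rose, Exosc7 (0.48) and Exosc2 (0.32). Of 14 further polymerase I genes 2 rose: Polr2h (0.53), a subunit common to the nuclear polymerases, and Baz2a (0.49), a part of the nucleolar remodelling complex that silences ribosomal DNA. Polymerase III, which makes the smallest ribosomal RNA and the transfer RNAs, had 4 of 20 genes higher and 0 lower, led by Polr3a (0.48), Polr3g (0.44) and Bdp1 (0.41). The counts of these shorter lists stand beside 4.93% of all genes called higher and 4.35% called lower. Among genes above the dim threshold the shares were 8.97% and 6.86%, and each list is small for a share.

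The ribosomal proteins were listed apart too. Of 55 measured genes 0 rose and 0 fell in limma, beside 4.93% and 4.35% of all genes. At an unadjusted p under 0.05, 5 were higher and 0 lower, below the 13.9% of all genes in each direction. The log2 fold changes ran from -0.11 to 0.21 with a median of 0.05. With a trended robust prior 15 were called higher and 1 lower, beside 12.3% and 9.32% of all genes. No test of the difference between the assembly factors and the ribosomal proteins was made. The ribosomal proteins were brighter, with a median level of 11.96 against 9.91 for the 57 genes, and the part of signal level was not tested. The transcripts of these proteins have many near-identical processed copies in the genome. Probe sets annotated with several gene symbols were left out, and 24 of the 79 listed genes had no probe set with only 1 symbol. A single symbol does not show that the probes match only that gene, so signal from such copies was not excluded.

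**Figure D3:**
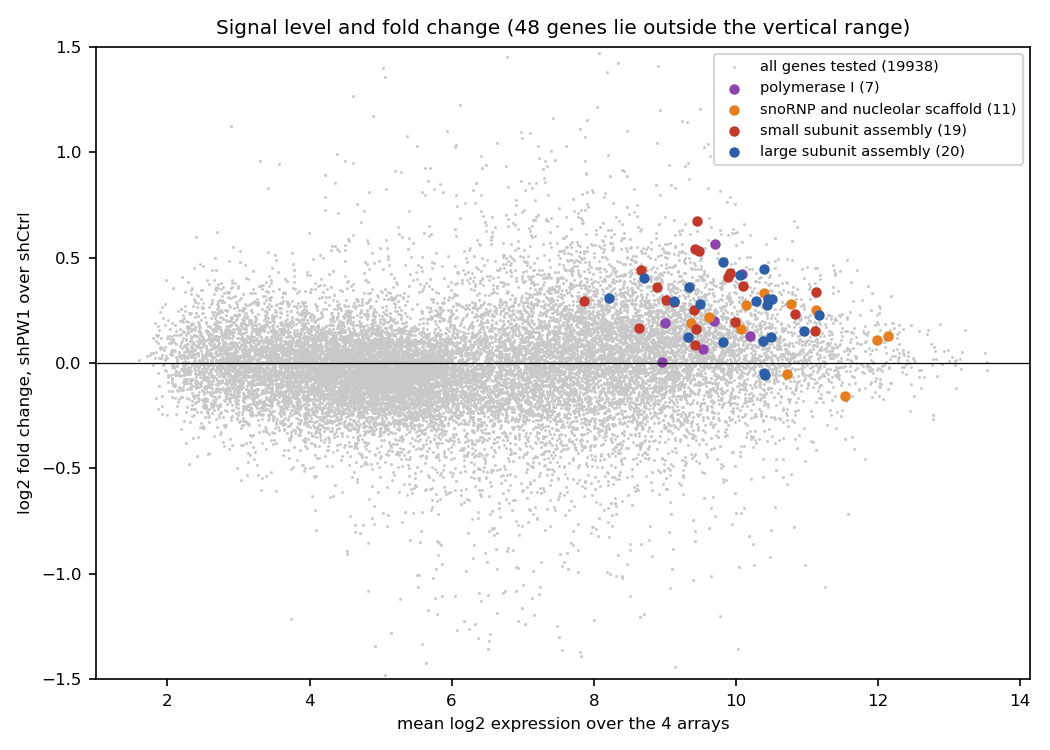
Log2 fold change (shPW1 minus shCtrl) against the mean log2 level over the 4 arrays, for all 19938 genes in grey and for the 57 ribosome biogenesis and polymerase I genes in colour. The vertical axis is limited to 1.5 in each direction and leaves out 48 genes. The coloured points lie at mean levels from 7.86 to 12.1 and mostly above 0.

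Myc and its partners were read as a list of 13 genes, of which 0 rose and 1 fell, beside 4.93% and 4.35% of all genes. The median log2 fold change of the list was 0.04. Myc measured 10.77 and 10.75 in shCtrl and 11.10 and 11.03 in shPW1 (0.30, adjusted p = 0.0509). The groups did not overlap, and the call depended on the setting. The adjusted p was 0.00614 with dim probe sets left out and 0.0292 after array medians were subtracted, but 0.0558 after quantile normalisation and 0.136 with all probe sets tested. Over all alternatives with an adjusted p it ran from 9.83e-05, with the trended robust prior, to 0.249, without shCtrl replicate 2. Max, with which Myc binds DNA, stood at 0.33 (adjusted p = 0.0759). Mxd4, one of the Mxd proteins that compete with Myc for Max, fell from 7.87 and 7.77 to 7.19 and 7.19 (-0.63, adjusted p = 0.0155). The others were Mga (0.27), Zbtb17 (0.17), Mlx (0.11), Mlxip (0.09), Mnt (0.04), Mycl (0.01), Mxd3 (-0.12), Mycn (-0.13), Mxi1 (-0.13) and Mxd1 (-0.18), of which none passed.

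The promoter windows, 300 bases with 250 before and 50 after the start, were available for 50 of the 57 genes (59 windows). CACGTG, which reads the same on both strands, was found in 9 of these genes (18%), beside 9.5% of the genes tested on the arrays. By window the shares were 15.3%, 8.24% of the windows of tested genes, and 7.15% of all promoters in the table. The genes were Rrn3, Pes1, Nop2, Utp4, Utp18, Utp20, Pno1, Ltv1 and Wdr43, thus 6 of the 9 in small subunit assembly. Of the genes called higher 5 of 22 with a window held it, and of those not called 4 of 28. The windows were also richer in CG dinucleotides, a pair that CACGTG contains, with a median of 22 a window against 15 for the tested genes, and the part of base composition was not tested.  A match is a string of letters and not evidence of binding, and its lack says nothing of sites elsewhere.

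Of 13 measured markers of dividing cells 0 rose and 1 fell, Aurka (-0.35, adjusted p = 0.0377), beside 4.35% of all genes called lower. At an unadjusted p under 0.05, 5 were lower and 0 higher, beside 13.9% of all genes in each direction, and the median log2 fold change was -0.14. Their mean level was 10.6 on both shCtrl arrays and 10.5 on both shPW1 arrays. The part of these markers and of the lower myoblast markers in the result was not tested.

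The number of calls depended on the setting. With dim probe sets left out, 42 of the 57 genes were called higher and 0 lower, beside 22.9% and 17.3% of the genes then tested. A prior that follows the level and is robust to outliers gave 44 higher (12.3%) and 1 lower, Npm1 (9.32%). Subtracting each array's median gave 32 higher (7.48%) and 0 lower (3.36%), and a further quantile normalisation 16 higher (4.83%) and 0 lower (4.93%). With the methods' analysis of variance, 29 were higher (6.35%) and 0 lower (5.55%) at its own thresholds, and 0 after adjustment (0.00502%). Taking the mean of the probe sets of a gene gave 24 higher (5.05%) and 0 lower (4.45%). The count fell to 1, Utp15, with the replicate number as a block (1.16% higher and 1.24% lower over all genes) or with the numbers crossed (0.953% and 1.09%). It was 0 when all probe sets of the table were tested together (0.15% and 0.191%). When any 1 array was left out, all calls were lost, in the list and over all genes.

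**Figure D4:**
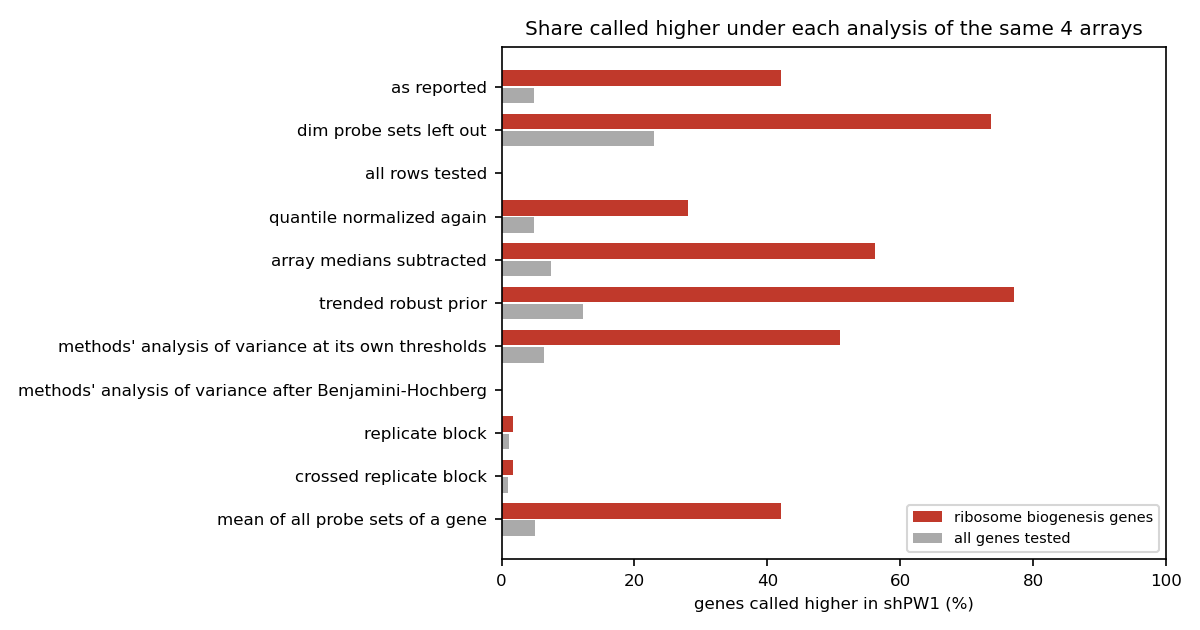
Share (%) of the 57 ribosome biogenesis and polymerase I genes (red bars) and of all genes tested (grey bars) called higher in shPW1 under each analysis of the 4 arrays. As reported the shares are 42.1% and 4.93%, and in the settings with any call in the list the red bar is the longer one. With the replicate block and the crossed block the red bar is only 1 gene. It lies near the grey bars of 1.16% and 0.953% there and is no result about the list.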

How the data were processed

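Total RNA of 2 shCtrl and 2 shPW1 samples was hybridised to Affymetrix Mouse Gene 1.0 ST arrays. The deposited values are log2 expression per probe set, which the authors obtained by RMA in Partek (version 6.4 per the submitters' processing notes). No scanner files were used here. Of 35556 probe sets, 21789 carried 1 gene symbol in the platform annotation, 1621 several and 12146 none. The 21789 were tested together with limma 3.58.1 in R 4.3.3 (lmFit and eBayes, 2 residual and 2.72 prior degrees of freedom, two-sided, Benjamini-Hochberg), and genes were called at an adjusted p under 0.05. Scripts were tested on simulated data. With 4 arrays, their number limits the precision.

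Genes were named by a rule: every called gene of the list, the 3 with the largest change in each group, the 3 just outside the threshold, up to 3 called genes of each other list, and the Myc network. Other genes of the list were named to account for them. Members and lists were chosen with earlier results of these data known. Polr1f, Polr1g and Polr1h were found under older symbols. Promoter sequences came from RefSeq (GRCm38.p6). A search for the consensus of PW1 was planned and is not reported here.

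The replicate numbers were checked for pairing. Deviations of same-numbered arrays correlated at -0.105. With so few arrays a group the deviations mirror each other, so this is a single value with no reference to set it against. It cannot decide whether same-numbered samples were prepared together, and pairing was neither shown nor excluded. Alternatives were the filter on dim probe sets (mean under 6.05), the probe sets tested, repeated quantile normalisation, subtraction of array medians, the prior, the methods' analysis of variance (fold over 1.2, p under 0.05), the replicate block, the mean over probe sets of a gene, and leaving out each array.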

Additional observations from a re-analysis of the deposited data

How the results depend on the processing

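Of the 57 genes, 24 were called higher as reported, and all 24 were also called after leaving out dim probe sets (42 in all), with the trended robust prior (44, and Npm1 as 1 lower call), after subtracting array medians (32), and with the methods' analysis of variance at its own thresholds (29). Quantile normalisation kept 16 of them. The median log2 fold change of the genes was 0.27 as reported, 0.34 after subtracting array medians and 0.21 after quantile normalisation. Over all genes, the 982 higher and 868 lower calls became 1491 and 669 after array medians were subtracted. Of the 57 genes, 0 were called when all probe sets of the table were tested, and 0 after Benjamini-Hochberg adjustment of the analysis of variance. With the replicate number as a block the count was 1, although the numbers were not shown to pair the samples, and with the numbers crossed, a pairing added after the data were seen, it was 1. Leaving out any 1 array lost all calls, in fits in which the lone array is assumed to vary like the other group. In those fits the median log2 fold change ranged from 0.25 to 0.28. The 24 called genes kept values above 0, the lowest being 0.27. Their groups did not overlap, so leaving out 1 array could not turn the direction. The cause of these differences was not tested.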

Other observations

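Small nucleolar RNAs mostly guide the modification of ribosomal RNA and mostly lie in introns of other genes. They were looked at after the values of the genes above had been seen. The small Cajal body RNAs Scarna8, Scarna13 and Scarna17 were counted with them, but in neither class below. Of 54 with a probe set of their own, 3 were higher in shPW1 and 0 lower in limma, a share near the 4.93% of all genes called higher and so no result about these RNAs. The median log2 fold change was 0.10, beside -0.01 over all genes. Of 20 H/ACA RNAs, the class bound by Dkc1, 2 were higher, Snora33 (0.42, adjusted p = 0.042) and Snora73b (0.37, adjusted p = 0.033), and the median was 0.20. Of 31 box C/D RNAs, 1 was higher, Snord47 (0.50, adjusted p = 0.0295), and the median was 0.06. Both classes are small for a share to be read against that background. Signal from unspliced host transcripts cannot be told apart from the mature RNAs.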
